A study of Mus musculus with 10 samples.

Results

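The genes described here are 34 genes of astrocytes, taken from a list of symbols: 30 that serve the resting cell, in uptake of glutamate, transport of water and ions, coupling, metabolism and secretion, and 4 that mark the reactive state (Gfap, Cd44, Timp1 and Steap4). Of the 34, 33 had a probe set paired with 1 gene alone, out of 18820 such genes on the array. The brightest probe set stood for Glul, the member with several. Slc7a10, which encodes an amino acid transporter, had no probe set of its own and has no value here.

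Astrocytes clear glutamate from the synapse, buffer potassium and water, couple to one another through gap junctions and contact blood vessels with their endfeet. In inflammation or injury they can become reactive, a state with more intermediate filament and a secretory programme that is driven in part by interleukin 6 family cytokines through the transcription factor STAT3. In the hypothalamus they lie close to the neurons that control feeding.

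The tumour-bearing group was male CDF1 mice (BALB/c x DBA/2) aged 10 to 11 weeks that carried C26, a transplantable colon adenocarcinoma known for the cachexia it causes, from 1000000 cells injected subcutaneously in 0.2 ml of Hanks' solution. Controls were mice of the same sex, cross and age with a sham injection of 0.2 ml. Hypothalami were collected on day 20, and 5 tumour-bearing mice and 3 controls had an array each. A further array held pooled RNA of 5 tumour-bearing mice and another that of 4 controls. Whether these include the mice measured singly is not given, so each pool is 1 value without a spread and did not enter the main test. The pools were added as samples in 1 alternative fit only. Levels are log2 RMA values, on which a difference of 1 is a doubling, and correlations between the 8 individual arrays were 0.98 to 0.989. A probe set entered the test if 3 or more of the 8 individual arrays had a level above 4.32, that is 20 before taking logs. This held for 32 members, and 31 exceeded that level on all 10 arrays, the defining genes Aqp4, Slc1a2, Slc1a3, Gja1 and Aldh1l1 among them. In bulk tissue, fewer astrocytes and less of an RNA per astrocyte cannot be told apart.

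No member passed the threshold of 0.05 after adjustment over all 22837 tested probe sets (limma, Benjamini-Hochberg), where 0.0569% of all tested probe sets were called higher and 0% lower. At an unadjusted p under 0.05, 7 members lay higher in tumour-bearing mice and 7 lower, 21.9% each of the 32 tested, against 4.71% and 5.82% of all tested probe sets. The members were chosen with earlier results of these data known, so these shares cannot be read as a result about the list. All tested probe sets also include ones not paired with a single gene, whereas each member has its gene's brightest. The 7 higher were Agt, Itih3, Fgfr3, Cbs, Gpc5, Glul and Slc1a3, and the 7 lower were Aqp4, Slc7a11, S100b, Kcnj10, Pla2g7, Slc14a1 and Acsbg1. Their absolute log2 differences were 0.121 to 0.509, with Aqp4 alone above 0.5. Of the 33 measured members 16 had a positive difference, where 48.6% of all tested probe sets did. The median difference of the members was -0.003, equal to the -0.003 over all tested probe sets, while the median absolute difference was 0.121 against 0.0764. In the pools 12 of these 14 members differed in the same direction, 85.7%, against 71.4% of all 2403 probe sets at that p. As the pools may hold RNA of the mice measured singly, this is not an independent replication. The plot of differences by role shows the members spread to both sides of 0.

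**Figure D1:**
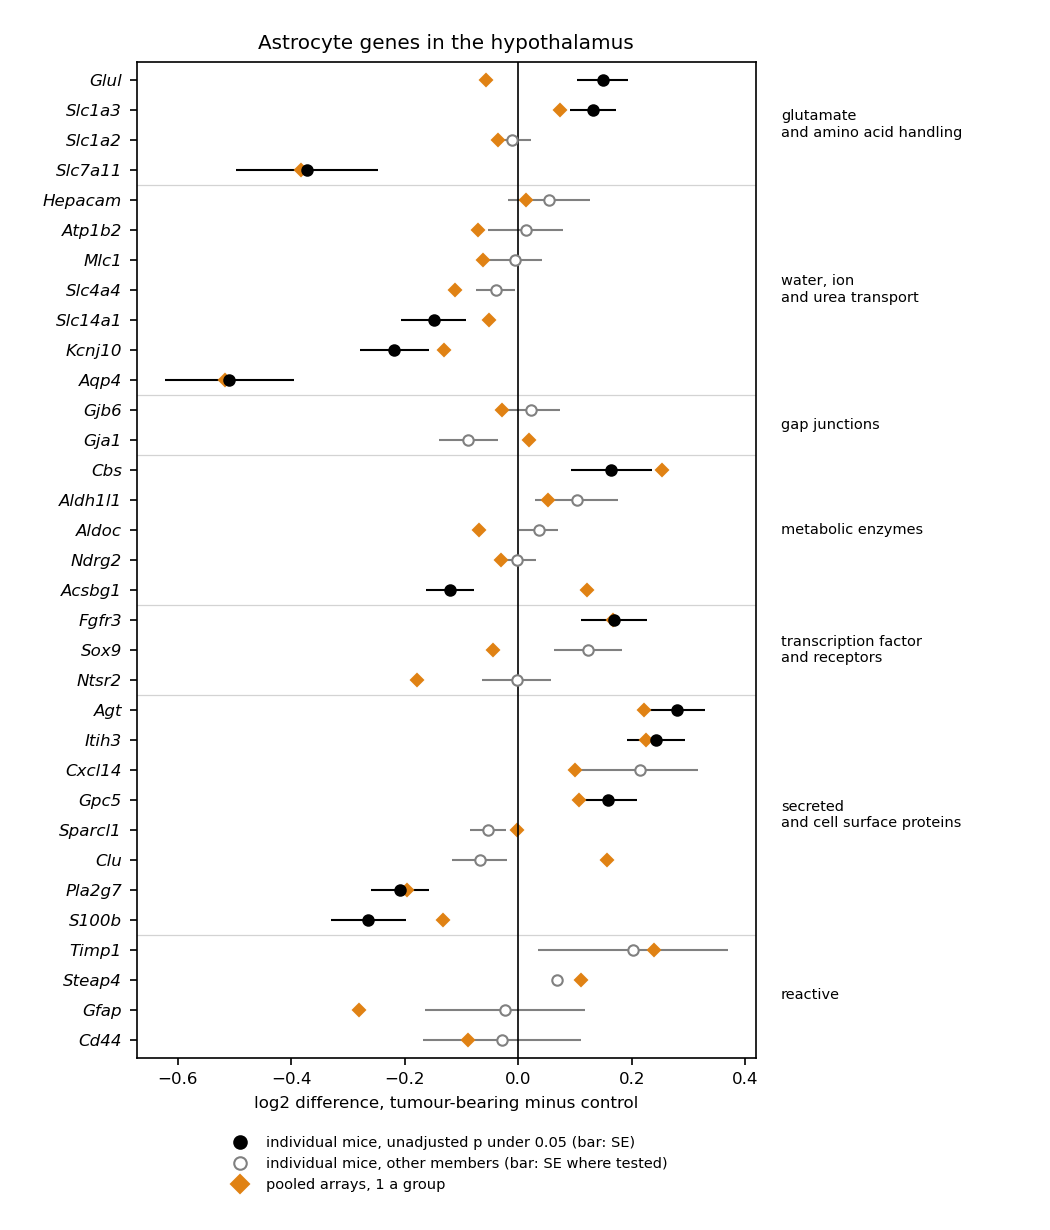
Log2 differences (tumour-bearing minus control) of the 33 measured astrocyte genes, grouped by role. Circles give the individual mice (5 tumour-bearing, 3 control) with the standard error, filled where the unadjusted limma p is under 0.05 (no bar for Steap4, which was not tested), and diamonds give the difference between the 2 pooled arrays; Aqp4 lies lowest at -0.51 and Agt highest at 0.28.

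The promoters of 6 members are shown, each picked because it holds a STAT motif, the element bound by the STAT3 of reactive astrocytes. They fall in 3 sets by their values below. At an unadjusted p under 0.05 Agt and Slc1a3 lay higher and Slc7a11 and Pla2g7 lower, and Gfap and Steap4 are reactive genes. None of them passed the threshold after adjustment, and the groups overlapped for Slc1a3, Slc7a11, Gfap and Steap4. Each runs from 250 bases before to 50 after the gene's start (RefSeq, GRCm38.p6), 5′ to 3′ on the gene's strand, with matches to TTCNNNGAA, the core of the STAT binding motif, in capitals.
Agt (chr8:124569657-124569956, minus strand): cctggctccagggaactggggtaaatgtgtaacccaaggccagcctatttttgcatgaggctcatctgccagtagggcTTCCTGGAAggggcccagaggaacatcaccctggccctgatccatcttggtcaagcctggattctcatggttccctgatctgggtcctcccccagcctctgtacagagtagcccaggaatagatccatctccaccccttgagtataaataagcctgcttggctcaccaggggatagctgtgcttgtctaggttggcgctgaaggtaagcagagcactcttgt
Slc1a3 (chr15:8710758-8711057, minus strand): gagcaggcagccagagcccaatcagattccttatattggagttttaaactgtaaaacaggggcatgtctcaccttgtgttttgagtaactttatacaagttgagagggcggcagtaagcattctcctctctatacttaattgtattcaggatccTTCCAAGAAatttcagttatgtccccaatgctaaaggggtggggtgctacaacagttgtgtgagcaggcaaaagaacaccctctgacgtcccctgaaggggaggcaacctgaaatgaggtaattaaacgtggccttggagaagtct
Slc7a11 (chr3:50443564-50443863, minus strand): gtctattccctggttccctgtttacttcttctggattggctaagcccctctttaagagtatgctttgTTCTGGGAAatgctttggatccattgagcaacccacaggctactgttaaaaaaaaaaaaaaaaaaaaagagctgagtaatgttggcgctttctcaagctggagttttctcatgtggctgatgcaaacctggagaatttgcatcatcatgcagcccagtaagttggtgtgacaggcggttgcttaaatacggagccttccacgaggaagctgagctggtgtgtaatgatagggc
Pla2g7 (chr17:43568201-43568500, plus strand): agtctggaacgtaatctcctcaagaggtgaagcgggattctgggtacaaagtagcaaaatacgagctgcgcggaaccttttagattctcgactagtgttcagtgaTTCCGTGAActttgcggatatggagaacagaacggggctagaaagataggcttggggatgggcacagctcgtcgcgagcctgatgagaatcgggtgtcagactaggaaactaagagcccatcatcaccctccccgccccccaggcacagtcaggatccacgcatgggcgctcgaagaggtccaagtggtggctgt
Gfap (chr11:102897151-102897450, minus strand): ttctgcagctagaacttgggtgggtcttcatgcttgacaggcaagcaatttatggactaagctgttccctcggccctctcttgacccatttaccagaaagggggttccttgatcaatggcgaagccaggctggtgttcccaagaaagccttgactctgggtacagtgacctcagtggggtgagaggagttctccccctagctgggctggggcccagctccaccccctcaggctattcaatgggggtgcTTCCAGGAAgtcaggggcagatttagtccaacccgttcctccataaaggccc
Steap4 (chr5:7960222-7960521, plus strand): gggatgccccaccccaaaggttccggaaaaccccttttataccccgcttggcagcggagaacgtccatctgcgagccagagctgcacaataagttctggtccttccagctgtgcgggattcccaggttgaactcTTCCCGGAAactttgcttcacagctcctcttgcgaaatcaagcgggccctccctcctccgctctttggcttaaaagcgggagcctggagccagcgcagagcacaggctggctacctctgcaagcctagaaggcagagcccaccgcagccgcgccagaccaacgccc

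Of the 34 listed genes, 28 had a promoter in the RefSeq table, with 33 windows in all, and 10 genes held the STAT core in a window: these 6, Acsbg1, Aldoc, Cxcl14 and Ntsr2. The other 18, among them Itih3 and Glul of the higher genes, Kcnj10 and S100b of the lower and Cd44 and Timp1 of the reactive, held none. Aqp4 and Slc14a1 of the lower genes, and Sox9, Atp1b2, Clu and Sparcl1, had no RefSeq window and were not searched. The core stood in 10 of the 33 member windows and in 8.30% of all 32851 windows of that length. The core is its own reverse complement, so both strands were read at once. The match began 172 bases before the start in Agt, 96 in Slc1a3, 183 in Slc7a11, 145 in Pla2g7, 116 in Steap4 and 2 in Gfap. The full palindromic glucocorticoid response element, searched on both strands, was in 0 of the 28 member genes' windows and in 0.475% of all windows. A match is a run of letters, not a site shown to be bound.

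Among the genes of glutamate handling, the level of Slc1a2, the main glutamate transporter of forebrain astrocytes, was much the same in every animal: 10.75, 10.70, 10.71, 10.65 and 10.65 in tumour-bearing mice, against 10.71, 10.70 and 10.70 in controls. The difference was -0.01 with a 95% interval of -0.09 to 0.06. Slc1a3, the glutamate transporter GLAST, measured 10.62, 10.53, 10.67, 10.63 and 10.61 in tumour-bearing mice and 10.55, 10.44 and 10.45 in controls. Mouse 2 lay below control 1, so the groups overlapped, with a difference of 0.13 ± 0.04 SE (limma adjusted p = 0.321). Glul, glutamine synthetase, which turns the glutamate taken up into glutamine, was 11.56, 11.42, 11.38, 11.42 and 11.48 in tumour-bearing mice and 11.25, 11.33 and 11.32 in controls. All 5 tumour-bearing mice exceeded all 3 controls for Glul, by 0.15 ± 0.04 SE (limma adjusted p = 0.307), but the pools stood the other way, at 11.59 in the tumour-bearing pool and 11.64 in the control pool. Its dimmer probe set differed by 0.16 ± 0.07 SE (limma adjusted p = 0.457), with tumour-bearing mouse 2, at 10.73, below 2 controls.

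Slc7a11, the cystine-glutamate exchanger xCT that feeds glutathione synthesis and releases glutamate, stood lower. It measured 7.85, 8.29, 8.27, 8.14 and 7.80 in tumour-bearing mice, against 8.57, 8.28 and 8.48 in controls. Mice 1 and 5 were well below the rest, and mice 2 and 3 were level with control 2. The difference was -0.37 ± 0.13 SE (0.773-fold, limma adjusted p = 0.360), and the pools measured 8.10 in tumour-bearing mice and 8.48 in controls.

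Of the 7 genes of water, ion and urea transport, 3 stood lower at an unadjusted p under 0.05 and 0 higher. Over all tested probe sets 5.82% were lower and 4.71% higher at that p, and a count out of so few genes is a description only. Aqp4, the water channel of astrocyte endfeet, had the largest difference of all members. It measured 8.51, 9.01, 8.60, 8.71 and 8.43 in tumour-bearing mice and 9.23, 9.10 and 9.16 in controls. Every tumour-bearing mouse lay below every control, mouse 2 by the least. Aqp4 averaged 8.65 ± 0.23 in tumour-bearing mice (SD, n = 5) and 9.16 ± 0.07 in controls (SD, n = 3), 0.703-fold, a log2 difference of -0.51 ± 0.11 SE (limma adjusted p = 0.219). The pools measured 8.53 in tumour-bearing mice and 9.05 in controls, a difference of -0.52. Without tumour-bearing mouse 2 the difference was -0.60 and passed the threshold (limma adjusted p = 0.0222, with 0.0222 to 0.999 over all settings tried). Mouse 2 was the nearest to the controls, so leaving it out had to enlarge the difference. That setting also had 32 probe sets called higher and 34 lower over the whole array. The Aqp4 difference was -0.17 with the level of oligodendrocyte markers as a covariate, and -0.32 with that of midbrain markers.

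Kcnj10, the inward rectifier Kir4.1 that buffers potassium and is also made by oligodendrocytes, measured 9.29, 9.52, 9.41, 9.30 and 9.46 in tumour-bearing mice, against 9.55, 9.69 and 9.60 in controls. The groups did not overlap, and the difference was -0.22 ± 0.06 SE (limma adjusted p = 0.286). The urea transporter gene Slc14a1 was 8.18, 8.35, 8.31, 8.38 and 8.18 in tumour-bearing mice and 8.44, 8.44 and 8.42 in controls, also without overlap, with a difference of -0.15 ± 0.06 SE (limma adjusted p = 0.411). The other 4 transport genes overlapped between the groups. They were Slc4a4, a sodium bicarbonate cotransporter, at -0.04, Atp1b2, a subunit of the sodium pump, at 0.01, and Mlc1 and its partner at astrocyte junctions, Hepacam, at -0.01 and 0.05. Their 95% intervals lay between -0.135 and 0.215.

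The gap junction genes overlapped between the groups too. Gja1, the main astrocyte connexin, measured 9.82, 9.99, 9.98, 9.95 and 9.83 in tumour-bearing mice and 10.08, 9.97 and 9.96 in controls (difference -0.09, 95% interval -0.20 to 0.03, and -0.0497 without control 1). Gjb6, its partner connexin, was 9.01, 9.02, 9.04, 9.01 and 8.91 in tumour-bearing mice and 9.08, 8.89 and 8.96 in controls (difference 0.02, 95% interval -0.09 to 0.14).

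The metabolic enzymes showed small differences of either sign. Cbs, cystathionine beta-synthase, which leads homocysteine towards cysteine, measured 7.19, 6.95, 6.95, 6.99 and 7.04 in tumour-bearing mice and 6.86, 6.79 and 6.93 in controls. The groups did not overlap, the difference was 0.16 ± 0.07 SE (limma adjusted p = 0.466), and the pools differed by 0.25. Acsbg1, an acyl-CoA synthetase of long fatty acids, was 8.98, 9.04, 8.95, 8.90 and 8.92 in tumour-bearing mice and 9.12, 9.04 and 9.08 in controls (difference -0.12 ± 0.04 SE, limma adjusted p = 0.377). The pools went the other way for Acsbg1, at 9.10 in tumour-bearing mice and 8.98 in controls. Aldh1l1, a folate enzyme used as a general astrocyte marker, was 7.61, 7.37, 7.38, 7.38 and 7.47 in tumour-bearing mice and 7.25, 7.44 and 7.33 in controls. The Aldh1l1 groups overlapped (difference 0.10, 95% interval -0.06 to 0.27), and leaving out control 1 gave 0.0571 and leaving out tumour-bearing mouse 1 gave 0.0596. Aldoc, aldolase C, and Ndrg2 differed by 0.04 and -0.003, with overlapping groups.

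Sox9, a transcription factor of the glial lineage, differed by 0.12 ± 0.06 SE (limma adjusted p = 0.514), with mouse 2 at 7.50 inside the control range of 7.46 to 7.51. Fgfr3, a fibroblast growth factor receptor of astrocytes, measured 8.97, 8.88, 8.70, 8.81 and 8.80 in tumour-bearing mice and 8.64, 8.70 and 8.64 in controls. Only mouse 3 lay within the control range, and the difference was 0.17 ± 0.06 SE (limma adjusted p = 0.377), with the same 0.17 in the pools. Ntsr2, a neurotensin receptor, differed by -0.003 with overlapping groups.

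Of the 8 secreted and surface proteins, 3 lay higher and 2 lower at an unadjusted p under 0.05, where 4.71% and 5.82% of all tested probe sets did. Agt encodes angiotensinogen, the precursor of angiotensin, which astrocytes make in the brain. It measured 11.16, 10.93, 11.05, 11.12 and 11.11 in tumour-bearing mice, against 10.78, 10.79 and 10.80 in controls. All 5 tumour-bearing mice exceeded the narrow control range, mouse 2 by the least. Agt averaged 11.07 ± 0.09 in tumour-bearing mice (SD, n = 5) and 10.79 ± 0.01 in controls (SD, n = 3), 1.21-fold, a log2 difference of 0.28 ± 0.05 SE (limma adjusted p = 0.135). The pools measured 11.19 in tumour-bearing mice and 10.97 in controls. Agt passed the threshold in 2 of 22 other settings, with limma adjusted p = 0.0173 to 0.999 over all settings. These were without tumour-bearing mouse 2 (0.32, limma adjusted p = 0.0173) and with only probe sets paired with 1 gene (0.28, limma adjusted p = 0.0263). Leaving out mouse 2, the nearest to the controls, had to enlarge the difference.

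Itih3, a heavy chain of the inter-alpha-trypsin inhibitor that binds hyaluronan, was 9.99, 9.86, 10.04, 9.97 and 10.07 in tumour-bearing mice and 9.81, 9.73 and 9.68 in controls. The groups did not overlap, the difference was 0.24 ± 0.05 SE (limma adjusted p = 0.207), and the pools measured 10.18 in tumour-bearing mice and 9.95 in controls. Gpc5, a cell surface heparan sulfate proteoglycan, measured 7.72, 7.65, 7.68, 7.66 and 7.60 in tumour-bearing mice and 7.42, 7.55 and 7.55 in controls, again without overlap (difference 0.16 ± 0.05 SE, limma adjusted p = 0.342). Cxcl14, a chemokine, differed by 0.21 ± 0.10 SE with overlapping groups (limma adjusted p = 0.509), highest in tumour-bearing mouse 1 at 7.81 and lowest in control 1 at 7.16, and it was 0.129 without control 1.

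S100b, a calcium-binding protein gene that oligodendrocyte lineage cells also use, stood lower, at 7.89, 7.96, 7.86, 7.91 and 7.75 in tumour-bearing mice, against 8.00, 8.22 and 8.19 in controls. The groups did not overlap, though mouse 2 and control 1 were close, and the difference was -0.26 ± 0.07 SE (limma adjusted p = 0.261). Pla2g7, which encodes the enzyme that breaks down platelet-activating factor, was 10.19, 10.24, 10.20, 10.16 and 10.01 in tumour-bearing mice and 10.39, 10.38 and 10.33 in controls. Here too every tumour-bearing mouse lay below every control (difference -0.21 ± 0.05 SE, limma adjusted p = 0.251), and the pools differed by -0.20. Clu, clusterin, and Sparcl1, a synapse-promoting matrix protein, differed by -0.07 and -0.05 with overlapping groups. In all, 10 members had groups that did not overlap, 5 higher and 5 lower, against 3.28% and 4.17% of all tested probe sets. As the members were chosen with earlier results of these data known, these shares are no result about the list either. The plot of levels on every array shows 4 genes of each direction.

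**Figure D2:**
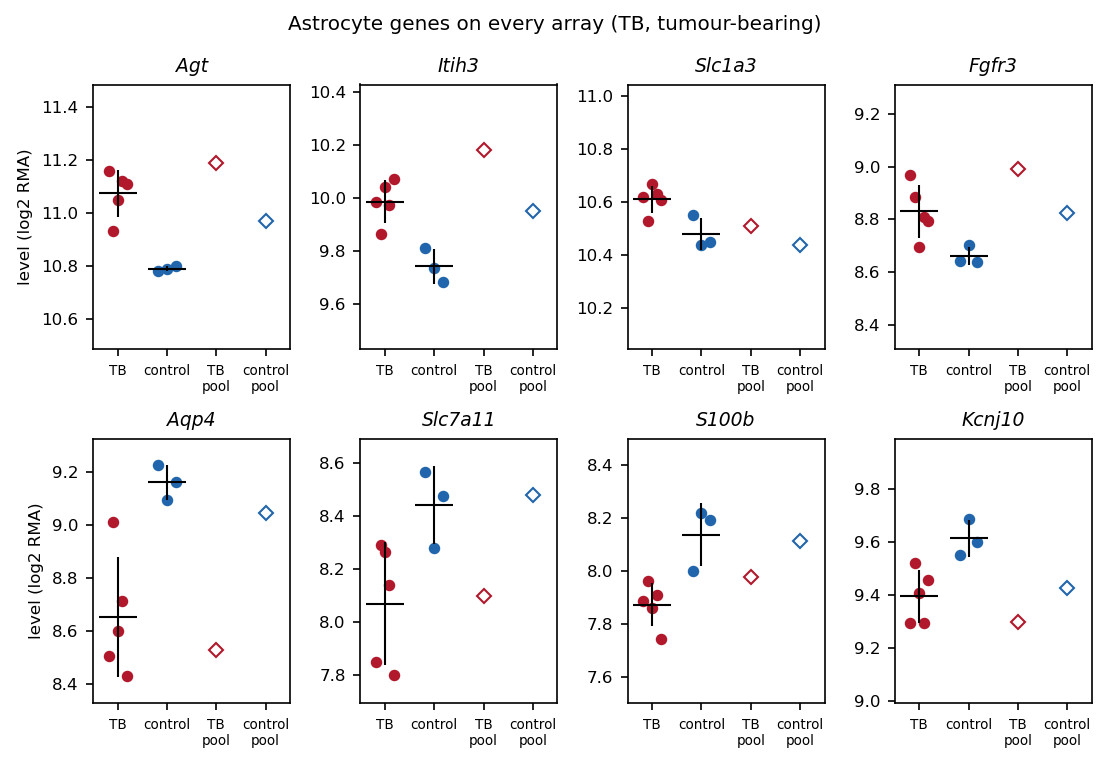
Levels (log2 RMA) of 4 higher genes (top) and 4 lower genes (bottom) on every array. Filled circles are individual mice with mean and SD (5 tumour-bearing, 3 control), open diamonds the 2 pools; for Aqp4, S100b and Kcnj10 every tumour-bearing mouse lies below every control, and for Agt and Itih3 every one lies above.

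The 4 reactive members did not separate the groups. Gfap, the intermediate filament whose rise defines astrogliosis, was 8.57, 8.65, 8.46, 8.56 and 8.08 in tumour-bearing mice and 8.78, 8.31 and 8.37 in controls. The lowest Gfap value was in tumour-bearing mouse 5 and the highest in control 1. The difference was -0.02 ± 0.14 SE (limma adjusted p = 0.975), with a 95% interval of -0.34 to 0.29, so these arrays do not resolve Gfap differences within that range. Leaving out control 1 gave 0.123, leaving out tumour-bearing mouse 5 gave 0.0714, and the difference was 0.314 with the level of oligodendrocyte markers as a covariate, so the sign of the Gfap difference is not settled. The pools differed by -0.28. Cd44, the hyaluronan receptor, was 4.81, 5.10, 4.89, 4.78 and 5.04 in tumour-bearing mice and 5.15, 4.67 and 5.03 in controls (difference -0.03, 95% interval -0.34 to 0.28).

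Timp1, an inhibitor of matrix metalloproteinases, lay near the filter level, at 4.05, 4.34, 4.28, 4.48 and 4.26 in tumour-bearing mice and 4.37, 4.08 and 3.78 in controls. Among the individual arrays it exceeded 4.32 in tumour-bearing mice 2 and 4 and in control 1, and the pools measured 4.59 in tumour-bearing mice and 4.35 in controls. The difference of 0.20 had a 95% interval of -0.17 to 0.58, and was 0.0547 without control 3, 0.349 without control 1 and 0.309 with the oligodendrocyte score as a covariate. Steap4, a metalloreductase induced by cytokines, was below the filter level on all 10 arrays and was not tested. Its values were 3.68, 3.76, 3.47, 3.44 and 3.94 in tumour-bearing mice and 3.72, 3.59 and 3.46 in controls.

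Other genes linked to reactive astrocytes, 41 listed and 36 measured, were read from the same fit. Of 28 tested, 2 rose past the threshold and 0 fell, against 0.0569% and 0% of all tested probe sets. The list was chosen with earlier results of these data known, so that share cannot be read as a result about the list. The pair was Lcn2, the secreted lipocalin 2, at 7.25, 6.40, 7.51, 7.48 and 6.94 in tumour-bearing mice against 4.33, 3.77 and 4.10 in controls (limma adjusted p = 0.00855), and Serpina3n, a serine protease inhibitor, at 9.68, 9.65, 9.81, 9.69 and 9.72 in tumour-bearing mice against 9.39, 9.38 and 9.33 in controls (limma adjusted p = 0.0308). In all 6 were higher and 1, the filament gene Nes, lower at an unadjusted p under 0.05. Of all tested probe sets 4.71% were higher and 5.82% lower at that p. The median difference of the 36 was 0.02. Lcn2 was lowest in mouse 2 among tumour-bearing mice, and 2 of its 3 control values lay below the filter level, so no fold is given. Over 22 other settings Lcn2 differed by 2.42 to 3.23 and passed the threshold in 18. It missed it without control 3 (limma adjusted p = 0.0509), without tumour-bearing mice 3 and 4 (limma adjusted p = 0.0562) and with the oligodendrocyte score (limma adjusted p = 0.268). Serpina3n differed by 0.265 to 0.361 and passed in 9 of the 22, with limma adjusted p = 0.00324 to 0.914. The Serpina3n call was lost without any 1 of the 3 controls and without tumour-bearing mouse 1, 4 or 5. Shown beside them, and chosen after their values were seen, are Osmr, the oncostatin M receptor (difference 0.66 ± 0.10 SE, limma adjusted p = 0.0654), and Vim, vimentin, the filament partner of Gfap (difference -0.13 ± 0.10 SE, limma adjusted p = 0.717). Lcn2 and Serpina3n are also made by cells other than astrocytes, and their cell of origin was not tested.

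**Figure D3:**
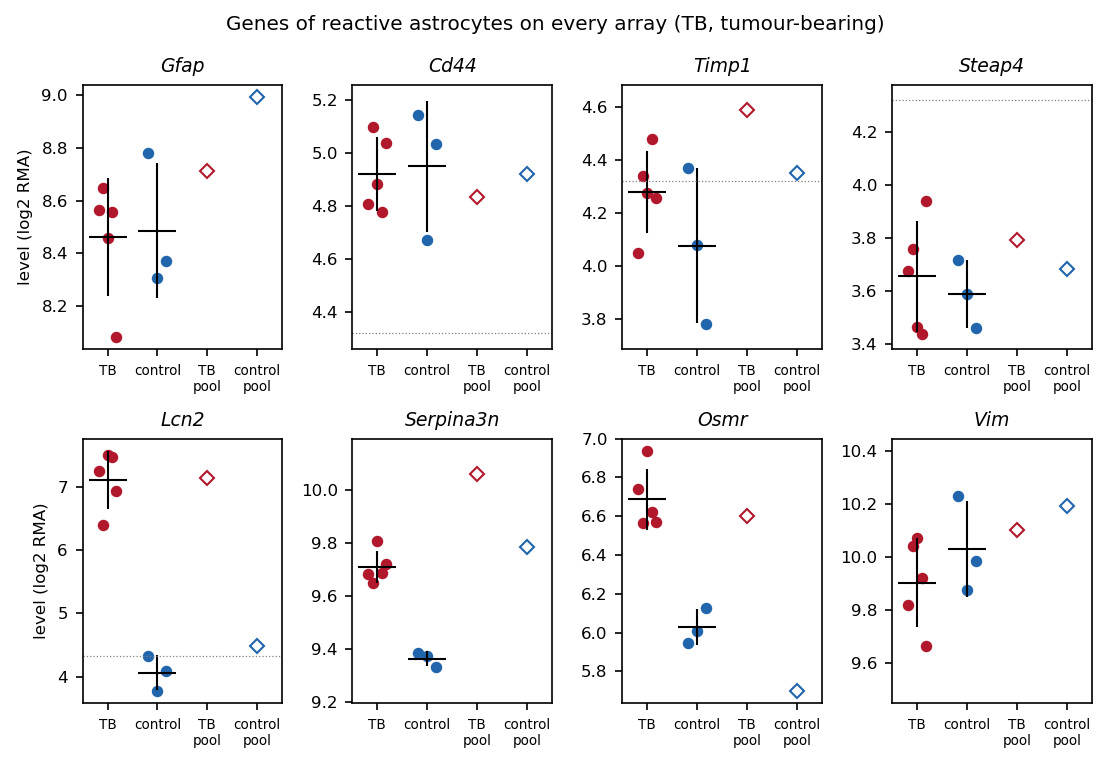
Levels (log2 RMA) of the 4 reactive members (top) and of 4 other genes linked to reactive astrocytes (bottom) on every array, drawn as individual mice with mean and SD and 2 pools; the dotted line marks the filter level of 4.32. Lcn2, Serpina3n and Osmr separate the 5 tumour-bearing mice from the 3 controls, and Gfap, Cd44, Timp1, Steap4 and Vim do not.

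Receptors and signal genes of astrocyte reactivity, 17 of 19 measured and all 17 tested, had 0 past the threshold. At an unadjusted p under 0.05, 3 were higher (Il1r1, Il6ra and Socs3) and 2 lower (Ednrb and Egfr). Over all tested probe sets, 4.71% were higher and 5.82% lower at that p. The interleukin 1 receptor Il1r1 differed by 1.01 ± 0.14 SE (limma adjusted p = 0.0597) and the interleukin 6 receptor Il6ra by 0.21 ± 0.07 SE, both without overlap. The endothelin receptor Ednrb, strong in astrocytes, differed by -0.19 ± 0.06 SE and the growth factor receptor Egfr by -0.21 ± 0.08 SE. These receptors are shared with other cells of the tissue.

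A wider list of 40 other astrocyte genes, 39 of them measured and tested, had 0 past the threshold and a median difference of -0.04. At an unadjusted p under 0.05, 4 were higher (Etnppl, Gabrg1, Lfng and Prodh) and 11 lower. The shares of all tested probe sets at that p were 4.71% higher and 5.82% lower. The smallest p of the list belonged to Etnppl, an enzyme of phosphoethanolamine breakdown. It measured 8.97, 8.36, 8.76, 8.80 and 8.89 in tumour-bearing mice against 8.13, 8.04 and 7.96 in controls. The groups did not overlap, the difference was 0.71 ± 0.12 SE (limma adjusted p = 0.112), and the pools differed by 0.68. Fabp7, the fatty acid binding protein of radial glia and astrocytes, was 10.27, 11.23, 10.58, 10.78 and 10.11 in tumour-bearing mice and 11.62, 11.42 and 11.30 in controls (difference -0.85 ± 0.22 SE, limma adjusted p = 0.270). Fgfr2, the relative of Fgfr3 that oligodendrocytes also carry, differed by -0.42 ± 0.09 SE (limma adjusted p = 0.189), opposite in sign to Fgfr3. Slc25a18, a mitochondrial glutamate carrier, differed by -0.22 ± 0.05 SE (limma adjusted p = 0.226). Tumour-bearing mouse 2 was again the one nearest the controls for Etnppl, Fabp7 and Fgfr2.

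That position of mouse 2 recurred among the members. Of the 14 members at an unadjusted p under 0.05, mouse 2 was the tumour-bearing mouse closest to the control mean for 9, 64.3%, against 37.1% of all 2403 probe sets at that p. Mouse 1 was the farthest for 7 of the 14 and mouse 5 for 5, or 35.7%, against 23.7% for mouse 1 and 34% for mouse 5 over those 2403 probe sets. For Aqp4 mouse 2 stood at 9.01 and mouse 5 at 8.43, where the controls averaged 9.16. The map of deviations shows mouse 2 nearer to the controls than mouse 5 in all 7 lower genes. The cause of the difference between the mice was not tested.

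**Figure D4:**
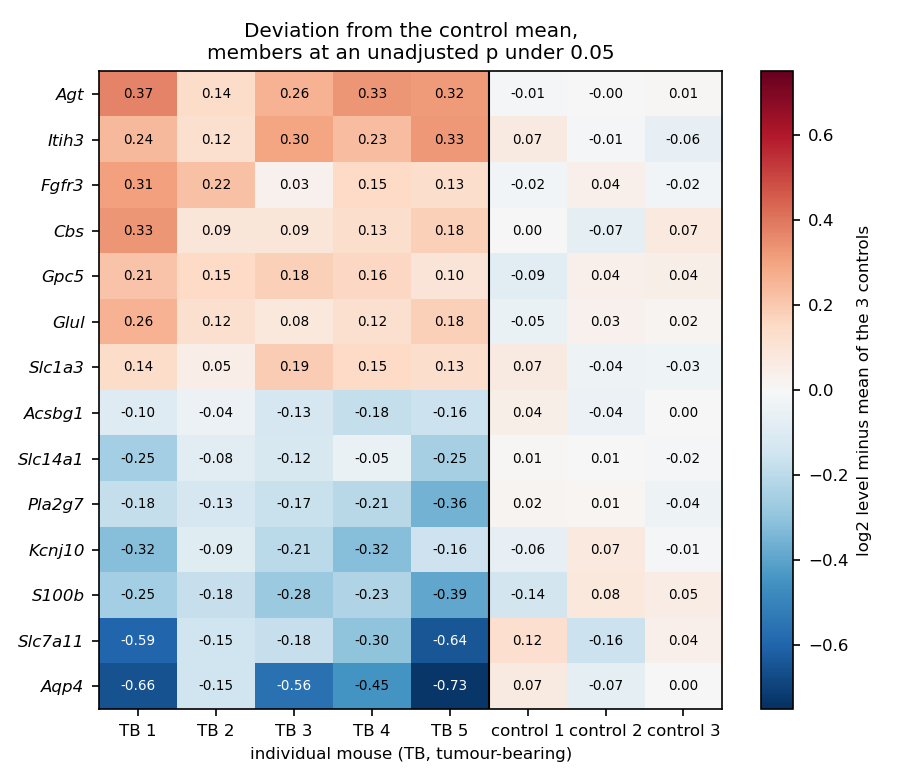
Level of each of the 14 members at an unadjusted p under 0.05 in each individual mouse, minus the mean of the 3 controls (log2; red above, blue below). Tumour-bearing mouse 2 has the value closest to 0 among the 5 tumour-bearing mice in 9 of the 14 genes.

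Markers of some other cells differed along with these genes. Beside the counts of each marker list stand 4.71% higher and 5.82% lower of all tested probe sets at an unadjusted p under 0.05. Mature oligodendrocyte markers, 10 measured of 12 listed, all had negative differences, 7 of the 10 at an unadjusted p under 0.05 and 0 past the threshold, with a median of -0.44. The lowest p belonged to Ugt8a (-0.81), Aspa (-0.62), Opalin (-0.95) and Mog (-0.45), genes of myelin and its lipids, each with every tumour-bearing mouse below every control. The mean level of the list was 8.29 to 8.96 over tumour-bearing mice and 8.98 to 9.08 over controls, and none was below the filter level on all individual arrays. Mouse 2 had the highest oligodendrocyte score of the tumour-bearing mice, 0.193, and mouse 5 the lowest, -0.482 (score, the mean deviation of the list from each gene's mean over the 8 mice). With that score as a covariate, 2 members were higher at an unadjusted p under 0.05, Agt and Fgfr3, and 0 lower. Aqp4 then differed by -0.17, Slc7a11 by -0.17, S100b by -0.14 and Kcnj10 by -0.20. Itih3 differed by 0.122, Slc1a3 by 0.0769, Pla2g7 by -0.0867, Slc14a1 by -0.0512 and Acsbg1 by -0.0613, all smaller than without the covariate, while Fgfr3 was larger at 0.261. Gfap, at 0.314, turned direction. As the score itself separates the groups, tumour and oligodendrocyte level cannot be told apart in that fit. The share of all tested probe sets at that p in the same fit is not given here. The fall in the counts therefore cannot be read as particular to the members.

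Midbrain markers, 9 measured and 7 tested, also had negative differences, 5 at an unadjusted p under 0.05 (Slc10a4, Chrna6, En2, Foxa1 and Slc6a3), with a mean level of 4.97 to 6.14 over tumour-bearing mice and 6.13 to 6.27 over controls. With their score as a covariate, 4 members were higher (Glul, Fgfr3, Agt and Itih3) and 1, Pla2g7, lower at that p. The share of all tested probe sets in that fit is not given here either. Aqp4 then differed by -0.32, Itih3 by 0.145, Slc1a3 by 0.049 and Fgfr3 by 0.267. The pools did not share the midbrain pattern, with a median of -0.02 over the 9 markers and 4 of them, Slc10a4, Chrna6 and Foxa1 included, higher in the tumour-bearing pool. Anterior pituitary markers were high in tumour-bearing mice 3 and 4, with scores of 1.613 and 1.569. The other tumour-bearing mice scored -0.527 to -0.326 and the controls -0.869 to -0.48. The tumour-bearing pool was high too, with a mean level of these markers of 6.107 against 4.455 in the control pool. For Gh the pools measured 9.817 and 4.37. Whether the tumour-bearing pool holds RNA of mice 3 and 4 is not given. Without these mice 6 members were higher and 6 lower at an unadjusted p under 0.05. Without control 1 the lower members numbered 4 (Aqp4, Kcnj10, S100b and Pla2g7) in place of 7.

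Pericyte and smooth muscle markers, 8 measured and tested, had 7 negative differences and a median of -0.20, with the same signs in the pools for all 8. Rgs5 (-0.39, every tumour-bearing mouse below every control) and Vtn (-0.36) were lower at an unadjusted p under 0.05. Telencephalon markers, 6 measured and 5 tested, had 2 higher at that p, Tbr1 (0.85) and Rgs9 (0.30), both without overlap, and a median of 0.08. Meningeal markers, 8 measured, all had negative differences with a median of -0.33, and 1 of them, Aldh1a2, was lower at an unadjusted p under 0.05. Neuron markers, 11 measured and tested, had 0 at an unadjusted p under 0.05 and a median of -0.02. Tanycyte and ependymal markers, glia of the third ventricle that share genes with astrocytes, had 0 of 8 at that p and a median of 0.06. Endothelial markers had 1 of 10, Tek, lower, with a median of 0.02, and microglia and macrophage markers, 12 measured and 10 tested, had 1 higher, C1qa, with a median of -0.13. The plot of lists places the astrocyte members beside them.

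**Figure D5:**
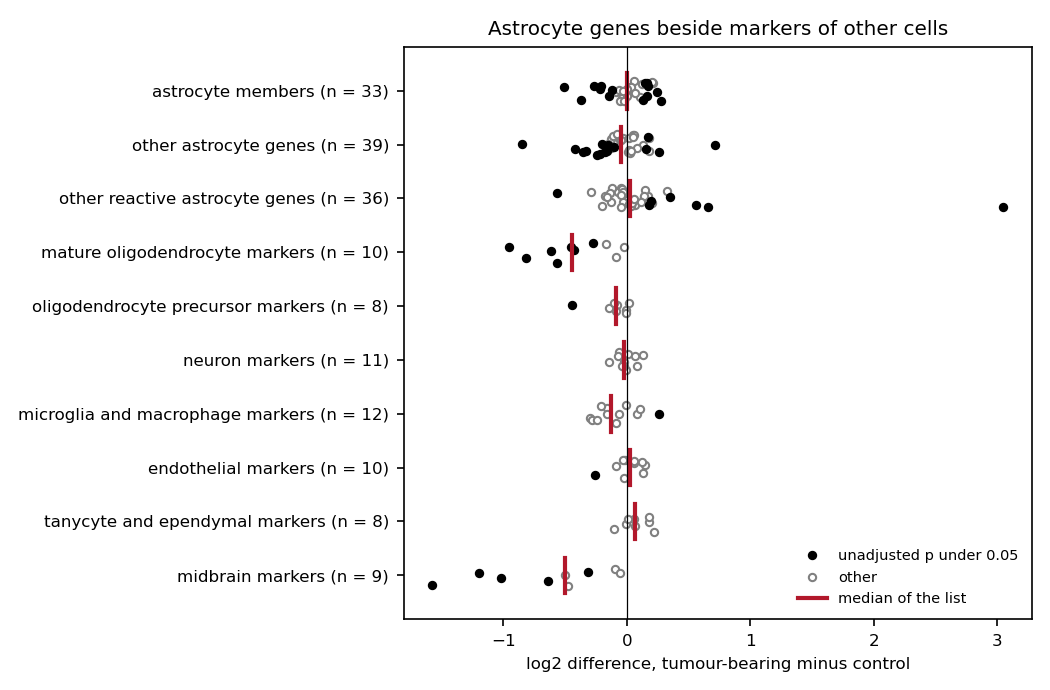
Log2 differences (tumour-bearing minus control) of single genes in 10 lists, with 1 point per measured gene, filled where the unadjusted limma p is under 0.05, and a red bar at each list's median. The astrocyte members lie on both sides of 0, while mature oligodendrocyte and midbrain markers lie to the left of 0.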

How the data were processed

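Hypothalamic RNA of 8 individual mice and 2 pools was measured on Affymetrix arrays with 35556 probe sets. The authors deposited RMA values, per the submitters' processing notes, which give background-corrected, normalized probe summaries on a log2 scale. That scale is read from the value range of 0.95 to 13.6, and the RMA version and array build are not given in the sources used here. Replicates are separate mice with 1 array each, and their number limits the precision. RMA draws arrays towards one distribution, so a shift common to most genes would not be seen, and values near the floor are compressed.

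From these values, tumour-bearing and control mice were compared with limma 3.58.1 in R 4.3.3 (empirical Bayes with an intensity trend) on every probe set with a level above 4.32 (20 before logs) on 3 or more of the individual arrays, adjusted by Benjamini-Hochberg over all of them, and tested on simulated data. The symbols came from the platform annotation: 21218 probe sets had 1 gene, 1881 several and 12457 none. Errors are the fit's SE unless given as SD. The members and lists were chosen with earlier results of these data known. All members are described. From the other lists up to 4 genes were named, those past the threshold or else with the smallest p, and Osmr, Vim, Nes, Socs3, Slc6a3, Gabrg1, Lfng and Prodh were named after their values were seen. Promoters are RefSeq windows of GRCm38.p6. Other filters, normalizations, weights, probe rules, a replicate block, added pools, marker covariates and left-out mice were tried.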

Additional observations from a re-analysis of the deposited data

Results flagged for a closer look

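Gjb6, an astrocyte connexin gene, had a lone low value in the tumour-bearing group. Mouse 5 stood at 8.906, inside the control range of 8.886 to 9.078, while the other 4 tumour-bearing mice lay between 9.011 and 9.044. The gap made up 0.759 of the group's whole range, above the critical value of 0.71 for 5 samples in Dixon's test. The 33 measured members were each examined this way, and chance marks about 1 in 20 groups.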

How the results depend on the processing

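The array-level counts moved most. The 13 probe sets called higher and 0 called lower became 5 higher with no filter, 22 higher and 1 lower with a stricter filter, 4 higher without an intensity trend, 20 higher and 4 lower with array weights, 1 lower with the pools added as samples, and 39 higher and 33 lower with only 1-gene probe sets, where 1 member (Agt) was called higher. Leaving out each mouse gave 0 to 32 higher and 0 to 34 lower, the highest of both without tumour-bearing mouse 2 and 0 higher without control 3, with 0 to 1 members called in each direction. Members at an unadjusted p under 0.05 then numbered 6 to 8 higher and 4 to 7 lower, and their median difference was -0.00634 to 0.0207. Without tumour-bearing mice 3 and 4, 0 probe sets were called higher. With the midbrain score 1 was called higher, 4 members were higher and 1 lower at that p, and the member median was 0.025. With the oligodendrocyte score 0 were called, and 2 members were higher and 0 lower.

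Same-numbered mice did not deviate together (correlations -0.00199, 0.00839 and 0.00891). What the number stands for is not given, and these few pairs cannot show that nothing else is shared. The replicate block called 0 probe sets higher, Lcn2 (limma adjusted p = 0.0968) and Serpina3n (limma adjusted p = 0.631) included, and left 4 members higher and 4 lower. With the pools added, 4 members were higher and 5 lower. If the pools hold RNA of the mice measured singly, that fit counts the same animals again.

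Over 22 alternatives 19 of the 33 members never turned direction. All 14 described as higher or lower at an unadjusted p under 0.05 were among them, though several of these 14 shrank with the marker covariates. Several alternatives could not turn a direction. Changes to the filter, to the empirical Bayes step or to which probe sets were kept left each difference as it was. Averaging probe sets could move Glul alone. The 14 were also picked from these same arrays for differences large against their error, so the count overstates how far their directions were tested. The other members turned as follows. Array weights gave -0.0199 for Atp1b2, 0.01 for Mlc1, 0.0934 for Gfap and 0.0634 for Cd44. Renewed quantile normalization gave -0.00152 for Atp1b2, and median centring gave 0.0048 for Mlc1, 0.00807 for Ndrg2 and 0.00761 for Ntsr2. The replicate block gave 0.0171 for Slc1a2, -0.0103 for Atp1b2, 0.00464 for Ntsr2 and 0.0722 for Gfap. Added pools gave -0.0123 for Gjb6 and -0.00327 for Aldoc. Without tumour-bearing mice 3 and 4, Ntsr2 was 0.0104 and Cd44 0.0315. The midbrain score gave -0.0135 for Gjb6, 0.0677 for Ntsr2, 0.0115 for Gfap and 0.0391 for Cd44. The oligodendrocyte score gave 0.0107 for Slc1a2, 0.00946 for Slc4a4, -0.000224 for Hepacam, -0.0109 for Sox9, 0.0163 for Ntsr2, 0.00119 for Clu and 0.314 for Gfap.

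Leaving out each mouse gave -0.076 to 0.0762 for Atp1b2, -0.0241 to 0.0225 for Mlc1, -0.0169 to 0.113 for Hepacam, -0.113 to 0.123 for Gfap, -0.167 to 0.0684 for Cd44, -0.0231 to 0.0729 for Gjb6, -0.0179 to 0.00833 for Ndrg2, -0.0669 to 0.0319 for Ntsr2, -0.0262 to 0.000224 for Slc1a2 and -0.00277 to 0.133 for Steap4. The cause of these turns was not tested. Timp1 and Steap4 lay near or below the filter level, where signal over background limits any difference.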
